A study of Homo sapiens with 21 samples.

Results

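The replication-dependent histone genes encode most of the core histones H2A, H2B, H3 and H4 and of the linker histone H1, the proteins that package DNA into chromatin. They were chosen by symbol in the authors' raw count table: H1-1 to H1-6, and every symbol that begins with H2AC, H2BC, H3C or H4C and a number. The rule found 83 of the 62656 genes in the table, of which 70 were genes and 13 were pseudogenes, and the older HIST1 and HIST2 names matched 0 further genes. The members comprised 6 H1, 22 H2A, 24 H2B, 15 H3 and 16 H4 entries. On the hg38 build, 65 of them lay on chromosome 6 between positions 25723397 and 27893891, 16 on chromosome 1 between 149782689 and 228464594, H4C16 on chromosome 12 and H2BC12L on chromosome 21.

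The cells were wild-type SH-SY5Y, a human neuroblastoma line, differentiated for 11 days. They then received 30 µM of 1 of 6 fluorinated compounds for 24 h, with 1% methanol in the final solutions, or served as controls, whose methanol content is not given in the sources used here. These were the perfluoroalkyl carboxylic acids PFOA and PFDA, of which PFDA has the longer chain, the perfluoroalkyl sulfonic acids PFOS and PFDS, of which PFDS has the longer chain, and a pair of fluorotelomers, the sulfonic acid 8:2 FTS and the alcohol 8:2 FTOH. Each of the 7 groups had 3 libraries, 21 in all, made from ribosome-depleted total RNA. The sources do not say what agent was used for differentiation or that the libraries of a group came from separate cultures, so each p-value reflects the scatter among libraries of a group, which may be technical only. The series calls the exposure sub-toxic and asks about neurotoxic effects.

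Replication-dependent histone genes are transcribed mainly in S phase, when new DNA has to be packaged, and their clustered promoters are activated there by NPAT together with OCT1 (POU2F1) at H2B genes and HINFP at H4 genes. Their messenger RNAs lack introns and, as a rule, a poly(A) tail, and end instead in a conserved stem-loop that SLBP binds and that the U7 snRNP-directed cleavage machinery uses to form the end. When replication stops, the stem-loop also directs the rapid decay of the RNA. A poly(A)-selected library would miss most of these RNAs, whereas the ribosome-depleted libraries used here retain them. In terminally differentiated cells some members are instead made as polyadenylated transcripts.

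The stem-loops are shown because they are the feature that sets these RNAs apart from nearly all others. GENCODE v29 transcripts were searched for 6-base stems that pair, allowing G with T, around a 4-base loop, starting with GG, ending with CC and with T as the first and the third base of the loop. The stem-loop was present within 100 bases after the stop codon in 29 of the 33 members whose annotated transcripts reach far enough, and in 22 of 18498 other protein-coding genes (0.119%). Members needed at least 40 annotated bases after the stop codon and other genes all 100, so the shares rest on unlike rules. The RNA-like strand is printed 5′ to 3′ as DNA, with the stem-loop in capitals and up to 5 flanking bases on each side in lower case.
H2AC8: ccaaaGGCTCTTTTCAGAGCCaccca
H2BC7: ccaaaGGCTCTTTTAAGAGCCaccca
H2BC9: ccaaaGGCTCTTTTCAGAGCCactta
H3C8: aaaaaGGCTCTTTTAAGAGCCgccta
H4C5: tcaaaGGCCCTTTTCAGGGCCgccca
H4C9: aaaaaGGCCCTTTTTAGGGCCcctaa
The H2A, H2B and H3 examples share one stem and the H4 examples another, and within each of these sets the last base of the loop varies. H2BC7 and H2BC9, the H2B genes whose levels are described in most detail, differ in the last base of the loop.

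Promoters of 64 members were matched in the RefSeq set (GRCh38.p14) and searched on both strands over 250 bases upstream of the start. CCAAT was present in 6 of 6 H1, 16 of 16 H2A, 18 of 18 H2B, 11 of 11 H3 and 3 of 13 H4 promoters, and in 36.89% of the 27241 other promoters. The octamer ATTTGCAT, the sequence OCT1 binds, was present in 11 of 16 H2A and 14 of 18 H2B promoters, in 1 of 11 H3 promoters, in 0 H1 or H4 promoters and in 1.938% of other promoters. GGTCCG, part of the element HINFP binds, was present in 12 of 13 H4 promoters and in 11.29% of other promoters. TATAAA was present in 43 of 64 member promoters and in 12.92% of other promoters. The 200 bases upstream of 4 members are printed 5′ to 3′ on the strand of the gene, with these motifs on either strand in capitals. H2BC7, H2BC9 and H4C13 are the members whose levels are followed most closely, and H1-5 is the member with the highest level.
H2BC7, chr6:26199316-26199515, plus strand: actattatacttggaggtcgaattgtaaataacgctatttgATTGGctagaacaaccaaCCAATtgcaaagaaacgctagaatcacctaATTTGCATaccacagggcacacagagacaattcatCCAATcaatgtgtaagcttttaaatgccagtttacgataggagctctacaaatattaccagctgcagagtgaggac
H2BC9, chr6:26251414-26251613, plus strand: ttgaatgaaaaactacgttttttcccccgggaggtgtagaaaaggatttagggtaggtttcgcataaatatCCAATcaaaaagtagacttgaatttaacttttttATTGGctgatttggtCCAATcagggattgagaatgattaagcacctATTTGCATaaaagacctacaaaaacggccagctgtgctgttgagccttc
H4C13, chr6:27873535-27873734, minus strand: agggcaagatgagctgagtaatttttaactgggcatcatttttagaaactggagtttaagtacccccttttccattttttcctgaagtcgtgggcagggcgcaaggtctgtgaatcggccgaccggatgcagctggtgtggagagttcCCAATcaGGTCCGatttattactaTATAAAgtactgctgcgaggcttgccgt
H1-5, chr6:27867589-27867788, minus strand: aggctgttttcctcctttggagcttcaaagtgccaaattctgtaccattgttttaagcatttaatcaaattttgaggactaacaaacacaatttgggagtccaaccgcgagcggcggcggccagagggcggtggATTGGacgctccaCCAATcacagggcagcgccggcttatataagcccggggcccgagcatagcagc
The H2B promoters each carry the octamer and 3 copies of CCAAT, the H4 promoter carries GGTCCG beside TATAAA and 1 CCAAT, and the H1 promoter carries 2 copies of CCAAT. Many members are arranged head to head: 14 pairs of genes on opposite strands had starts within 1000 bases of each other, 12 of them an H2A with an H2B gene, with a median of 237 bases between them. The 250-base windows of these H2A and H2B pairs cover mostly the same bases. A motif between the genes of such a pair can thus count for both. The H2A and H2B motif counts above are therefore not independent. In the pair of H2BC8 and H2AC8, with 232 bases between them and no 75-base stretch shared with other transcripts, H2BC8 averaged 234 and H2AC8 averaged 376 CPM per kb of exon (CPM are counts scaled per 1000000 after TMM normalisation).

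Total counts per library ran from 7680024 to 30429746, with a median of 14633793, and 24879 genes passed the filter on low counts. Mitochondrial genes took 3.37% to 6.33% of the counts, the most in Control 3. Markers of noradrenergic neurons, 12 of 12 tested, summed to between 8178 and 10900 CPM. Mesenchymal markers summed to between 259 and 335 CPM, mostly TWIST1, with PRRX1 below 1 CPM in every library, and 6 Schwann cell or glial markers summed to between 9.70 and 15 CPM. MKI67, which cycling cells express, stood at a median of 735 CPM. In bulk RNA, fewer cells with a given RNA and less of it per cell cannot be told apart.

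The members together took 0.50% to 0.82% of all counts. Of the 83 members, 66 passed the filter, 63 of them genes and 3 pseudogenes (H2AC5P, H2BC27P and H4C10P). The other 17 did not exceed 0.823 CPM in any library, and 6 of those had no count at all. Low counts need not mean absent RNA there, since reads that fit several genes may go uncounted. H3C4, H2AC7 and H2AC17 share 100%, 97.8% and 85.3% of their 75-base stretches with other transcripts and overlap exons of a gene on the same strand. H2AC10P, H2AC2P, H2AC3P, H2BC19P and H2BC20P, all without counts, also overlap such exons. Among the 66 tested, 28 averaged over 100 CPM and 10 averaged under 10 CPM. H2B genes held 25.4% of the summed level, H3 genes 19.8%, H2A genes 19.1%, H1 genes 18.4% and H4 genes 17.4%.

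Compared per length of exon, the leading genes of most classes were at similar levels. H4C3 and H4C4 averaged 616 and 606 CPM per kb, H1-5 averaged 575 and H3C2 averaged 531 CPM per kb. H1-2 and H1-4 followed at 435 and 355 CPM per kb. The leading H2A genes, H2AC14 and H2AC8, averaged 386 and 376 CPM per kb. H2BC12 led the H2B genes at 285 CPM per kb. H2BC12 and H2AC14 share 50.5% and 82.4% of their 75-base stretches with other transcripts, so their counts may be split with other genes. The H2B gene with the highest level in CPM, H2BC18 on chromosome 1, averaged 112 CPM per kb over 1798 annotated exon bases, which overlap exons of FCGR1A on the other strand. H2BC4 averaged 246 and H2BC5 averaged 170 CPM per kb. H3C6, with 2679 annotated bases, averaged 65.9 CPM per kb against 337 CPM per kb for H3C8.

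**Figure D1:**
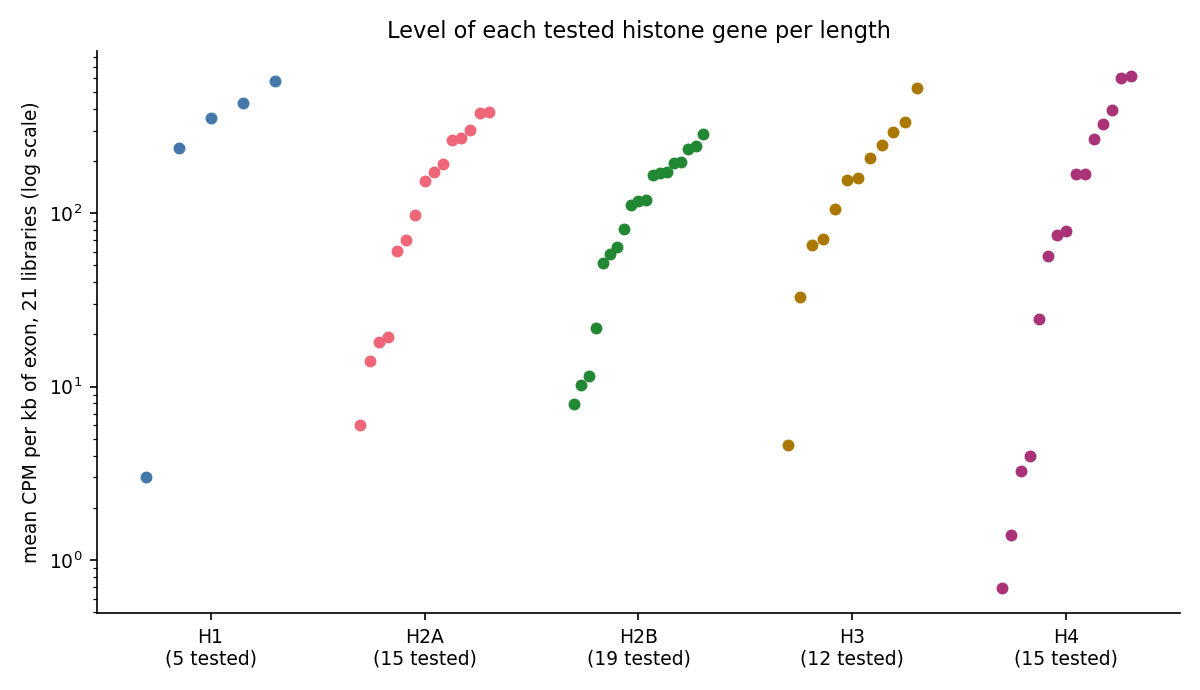
Each point is 1 of the 66 tested histone genes, placed by class, with its mean level over 21 libraries in CPM per kb of annotated exon on a log scale. The highest genes of the H1, H3 and H4 classes lie between 531 and 616 CPM per kb, and each class has members far below them.

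The summed level was lower on average in every compound group than in the controls. It averaged 6706 CPM ± 194 with PFOA, 6952 ± 569 with PFOS, 6678 ± 509 with PFDA, 6591 ± 1474 with PFDS, 6254 ± 482 with 8:2 FTS and 6640 ± 1377 with 8:2 FTOH, and 7550 ± 867 in the controls (SD, n = 3 each). These means were 82.8% of the control mean with 8:2 FTS and between 87.3% and 92.1% with the other 5 compounds. The 3 libraries of 8:2 FTS stood at 6694, 5738 and 6331 CPM, and those of PFOA at 6627, 6927 and 6564 CPM, all below the control libraries at 6987, 8549 and 7115 CPM. The PFDS libraries, at 5003, 6854 and 7915 CPM, reached below and above all libraries of the other 4 acids, and the 8:2 FTOH libraries, at 8091, 6477 and 5351 CPM, reached as widely. PFOS libraries at 6494, 7589 and 6774 CPM and PFDA libraries at 6091, 7011 and 6930 CPM overlapped the controls. For 4 of the 6 compounds the libraries thus overlapped those of the controls.

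**Figure D2:**
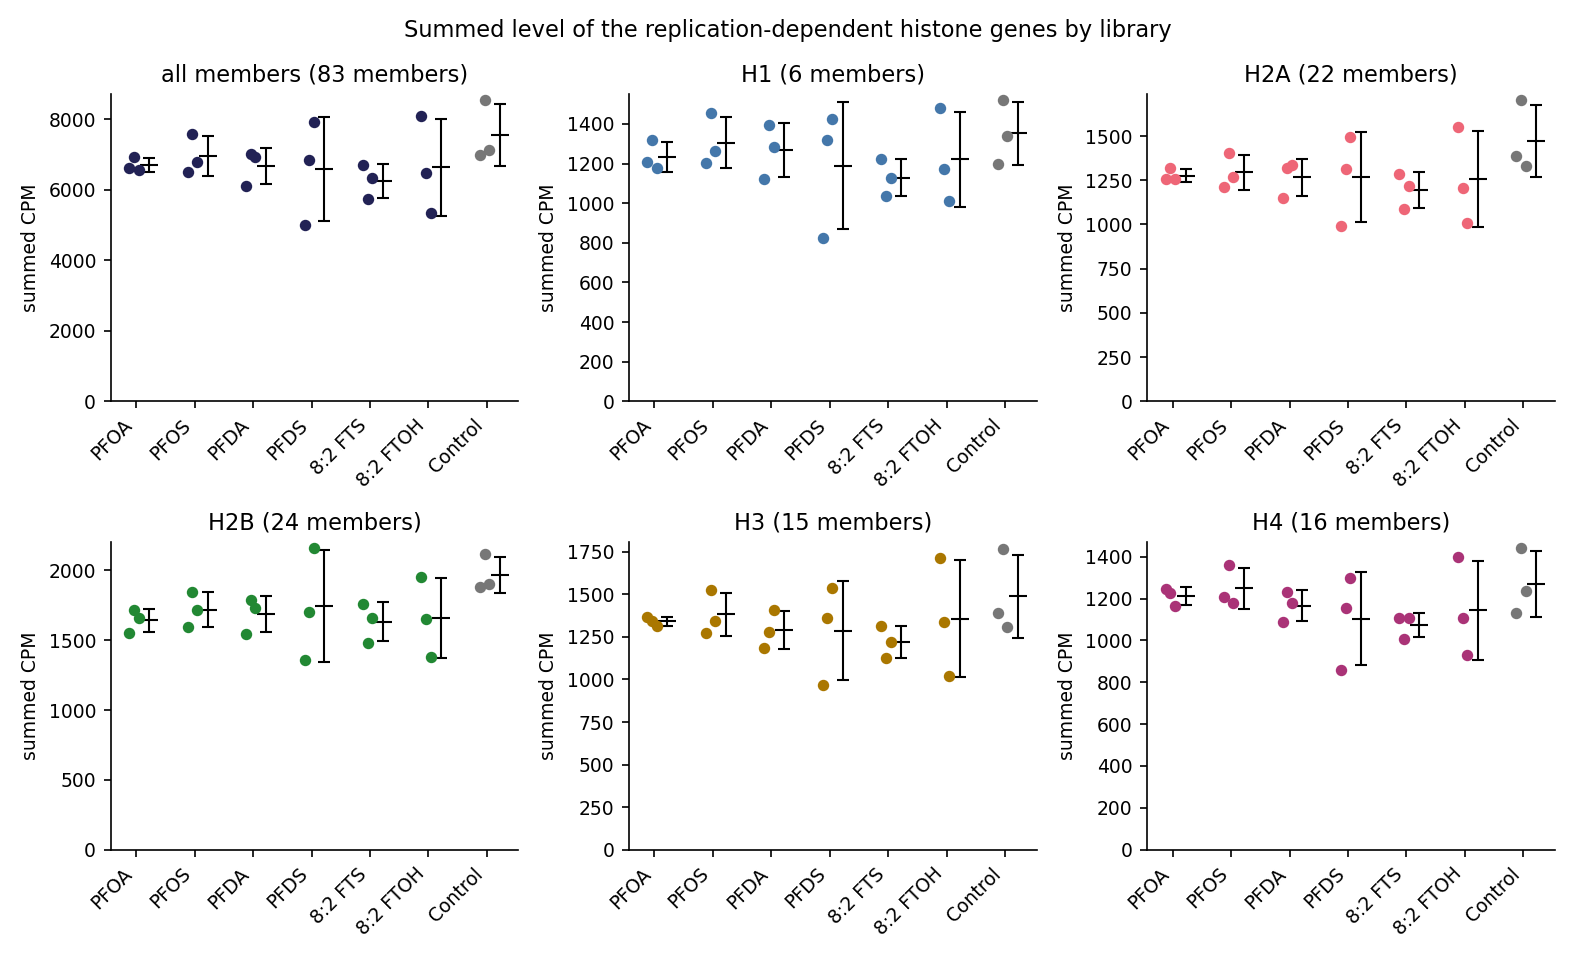
Summed level of the members in CPM for all 83 members and for each class; points are libraries, and the bar beside them is the mean with its SD (n = 3). The 8:2 FTS and PFOA libraries lie below all 3 control libraries in the panel of all members, and PFDS and 8:2 FTOH spread over a wide range in every class.

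No histone gene passed an adjusted p of 0.05 in any comparison with control (edgeR quasi-likelihood test, Benjamini-Hochberg over 24879 genes), while the fold changes leaned to lower levels for all 6 compounds. With 8:2 FTS, 0 of 66 members were called, with 0.0844% of all genes called (0.0724% lower and 0.0121% higher). The log2 fold change was negative for 61 of the 66, with a median of -0.23 where the median of all genes was 0.01. At an unadjusted p of 0.05, 13 members were lower and 0 higher, where 4.2% of all genes were lower and 3.57% higher. The 8:2 FTS libraries lay below every control library in 28 members, where 7.17% of all genes did so, and above every control library in 1, H2AC5P, where 6.64% did so. The lowest adjusted p was 0.11, for H4C13.

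With PFOA, 0 of 66 members were called, with 0.0322% of all genes called (0.0281% lower and 0.00402% higher). The log2 fold change was negative for 56 members, with a median of -0.15, and 7 members were lower and 0 higher at an unadjusted p of 0.05, where 5.6% of all genes were lower and 4.46% higher. The groups did not overlap, with PFOA lower, in 19 members, where 8.46% of all genes did so. The lowest adjusted p was 0.145, for H2BC9. The 2 members with PFOA above every control library were H2AC19 and H4C8, where 7.45% of all genes were higher in that way.

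With PFDA, 0 of 66 members were called, with 0.00804% of all genes called, all of them lower. The log2 fold change was negative for 55 members, with a median of -0.17. At an unadjusted p of 0.05, 8 members were lower and 0 higher, where 4.39% of all genes were lower and 4.04% higher. PFDA libraries lay below every control library in 14 members, where 7.85% of all genes did so, and above every one in 0, where 7.92% did so, and the lowest adjusted p was 0.291. With PFOS, 0 of 66 members were called, with 0.0241% of all genes called (0.0161% lower and 0.00804% higher). Here 50 members had a negative log2 fold change, with a median of -0.13, 6 were lower and 1 higher at an unadjusted p of 0.05, where 3.57% of all genes were lower and 3.26% higher. The groups did not overlap, with PFOS lower, in 9 members, where 7.41% of all genes did so, and with PFOS higher in 1, where 6.62% did so, and the lowest adjusted p was 0.375.

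The PFDS and 8:2 FTOH groups gave negative fold changes as often but with few members clear of the controls. With PFDS, 0 of 66 members were called, with 0.0241% of all genes called (0.0201% lower and 0.00402% higher), and 58 had a negative log2 fold change, with a median of -0.16. At an unadjusted p of 0.05, 5 were lower and 0 higher, where 3.03% of all genes were lower and 2.56% higher. PFDS libraries lay below every control library in 2 members, where 4.53% of all genes did so, and above every one in 0, where 3.72% did so. With 8:2 FTOH, 0 of 66 members were called, with 0.0322% of all genes called (0.0281% lower and 0.00402% higher), and 55 had a negative log2 fold change, with a median of -0.18. At an unadjusted p of 0.05, 9 were lower and 0 higher, where 4.28% of all genes were lower and 3.55% higher. The groups did not overlap, with 8:2 FTOH lower, in 4 members, where 6.98% of all genes did so, and with 8:2 FTOH higher in 0, where 5.95% did so. Both shares of members below the controls were near those of all genes. The 6 comparisons share the same 3 control libraries, so their common lean is not independent: 45 of the 66 members were negative in all 6, and H2AC19 alone was negative in none. The share of all genes that were negative in all 6 is not given here. These counts are therefore not read as particular to the histone genes.

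**Figure D3:**
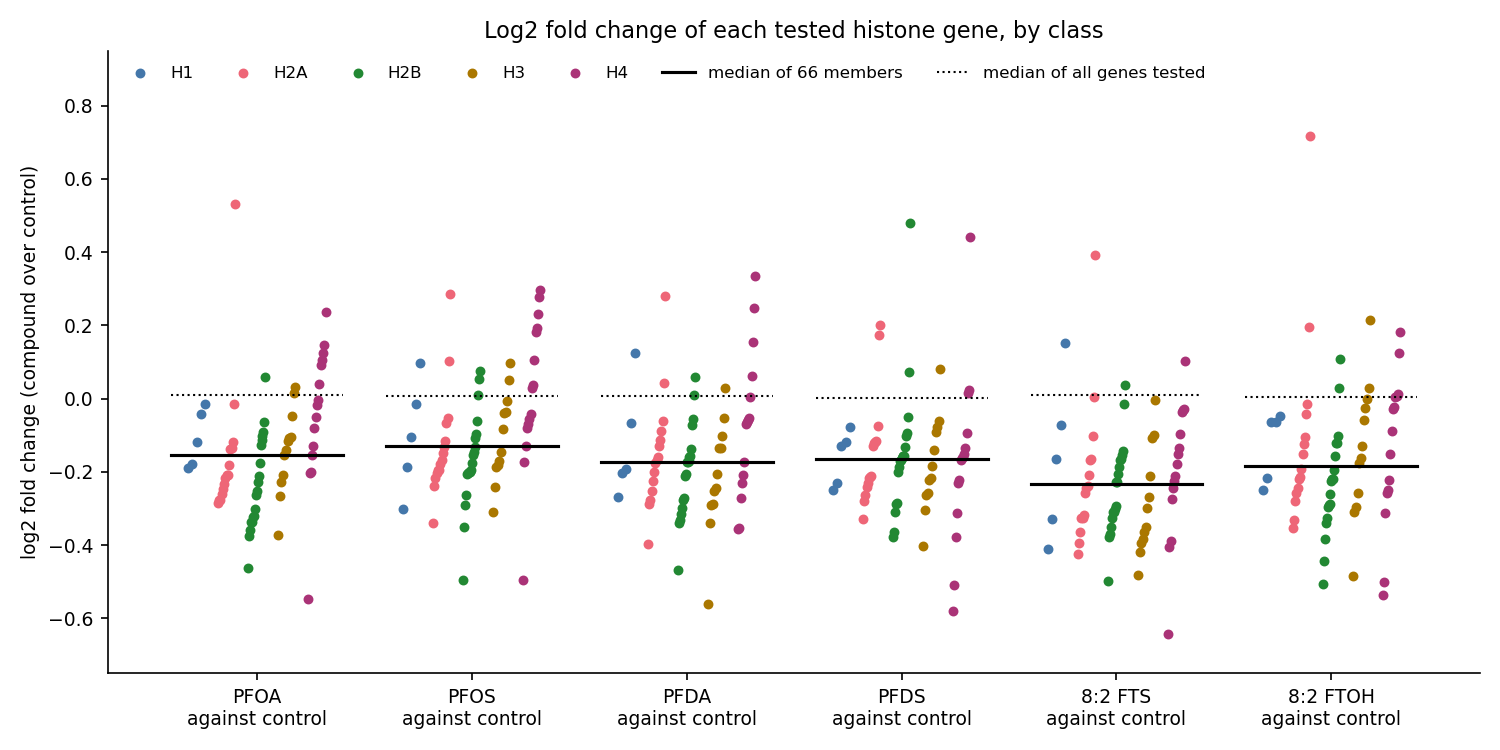
Log2 fold change (compound over control) of each of the 66 tested members, coloured by class, with the median of the members as a solid line and the median of all genes tested as a dotted line. Member medians lie between -0.23 and -0.13, the medians of all genes lie between 0.00 and 0.01; the lowest point is H4C13 with 8:2 FTS (-0.64) and the highest H2AC19 with 8:2 FTOH (0.72).

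The medians depended on single libraries to a different extent by compound. Without PFDS replicate 1 the median for PFDS was 0.00, and without PFDS replicate 3 it was -0.35 and 3 members passed, among 100 genes called in all. Without 8:2 FTOH replicate 3 the median for 8:2 FTOH was -0.07, and without 8:2 FTOH replicate 1 it was -0.32 and 3 members passed, among 25 genes called in all. Without Control 2, which had the highest summed level, the medians were -0.14 for 8:2 FTS, -0.09 for PFDA, -0.07 for PFOA, -0.04 for PFOS, -0.08 for PFDS and -0.10 for 8:2 FTOH. Without Control 3, 1 member passed for 8:2 FTS, among 41 genes called in all, and 1 for PFOA, among 136, H4C13 in both. PFDS replicate 1 held the lowest level of 37 of the 66 members and 8:2 FTOH replicate 3 that of 20, while Control 2 held the highest level of 23. Mitochondrial genes took 5.24% of counts in PFDS replicate 1 and 6.11% in 8:2 FTOH replicate 3, which also had the lowest total count, 7680024. They took 6.33% in Control 3 and 5.4% in PFDA replicate 2 as well, where the histone sums were 7115 and 7011 CPM. The part of RNA quality and depth in these levels was not tested.

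H4C13, H2BC7 and H2BC9 were lower at an unadjusted p of 0.05 with all 6 compounds. The 6 comparisons share the same controls, and the share of all genes lower in this way with all 6 is not given here. H4C13 encodes H4, which forms the nucleosome core with H3, and H2BC7 and H2BC9 encode H2B, which pairs with H2A. H4C13 (chromosome 6, 27873148 to 27873534, 387 bases) stood at 101.6, 95.3 and 89.3 CPM with PFOA, 93.4, 106.5 and 96.5 CPM with PFOS, 97.2, 132.3 and 98.7 CPM with PFDA, and 95.3, 92.3 and 105.2 CPM with PFDS. It stood at 87.9, 76.0 and 103.5 CPM with 8:2 FTS and 113.9, 88.6 and 85.2 CPM with 8:2 FTOH, against 137.1, 161.8 and 118.5 CPM in the controls. Of the 18 exposed libraries, PFDA replicate 2 was the only one above the lowest control. The log2 fold change was -0.64 ± 0.14 (SE) with 8:2 FTS, -0.55 ± 0.14 with PFOA, -0.54 ± 0.14 with 8:2 FTOH, -0.51 ± 0.14 with PFDS, -0.50 ± 0.14 with PFOS and -0.35 ± 0.14 with PFDA. The adjusted p of the edgeR test was 0.11, 0.173, 0.227, 0.399, 0.397 and 0.516 in that order. With the DESeq2 test H4C13 passed for 8:2 FTS (adjusted p = 0.00137), PFOA (0.0164), 8:2 FTOH (0.0183) and PFDS (0.0435).

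H2BC7 (chromosome 6, 26199516 to 26199988, 473 bases) stood at 75.5, 101.6 and 87.6 CPM with PFOA, 77.1, 87.4 and 95.2 CPM with PFOS, 84.1, 92.4 and 87.7 CPM with PFDA, and 79.4, 87.5 and 113.1 CPM with PFDS. It stood at 88.5, 79.5 and 90.5 CPM with 8:2 FTS and 101.6, 84.4 and 70.2 CPM with 8:2 FTOH, against 121.5, 132.6 and 111.1 CPM in the controls. Only PFDS replicate 3 among the exposed libraries was above the lowest control. The log2 fold change lay between -0.51 with 8:2 FTOH and -0.38 with PFDS, each with an SE of 0.13, and the edgeR adjusted p lay between 0.21 and 0.629. With the DESeq2 test H2BC7 passed for 8:2 FTOH (adjusted p = 0.028), 8:2 FTS (0.0359) and PFOA (0.0395).

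H2BC9 (chromosome 6, 26251614 to 26252075, 462 bases) stood at 79.7, 86.6 and 88.5 CPM with PFOA, 84.2, 90.7 and 84.7 CPM with PFOS, 77.3, 98.6 and 87.5 CPM with PFDA, and 77.7, 86.8 and 105.6 CPM with PFDS. It stood at 88.8, 77.0 and 90.0 CPM with 8:2 FTS and 104.6, 83.7 and 82.1 CPM with 8:2 FTOH, against 108.5, 113.6 and 108.9 CPM in the controls. All 18 exposed libraries were below all 3 controls, and how often this held among all genes is not given here. The control SD was only 2.85 CPM, and the log2 fold change lay between -0.38 with PFOA and -0.29 with PFDS, each with an SE of 0.09 to 0.10. The edgeR adjusted p lay between 0.145 and 0.534. All 3 genes were chosen on their values, H4C13 for the lowest log2 fold change in 4 of the 6 comparisons, and H2BC7 and H2BC9 after their values were seen. None of these 3 genes shared a 75-base stretch with a transcript of another gene.

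**Figure D4:**
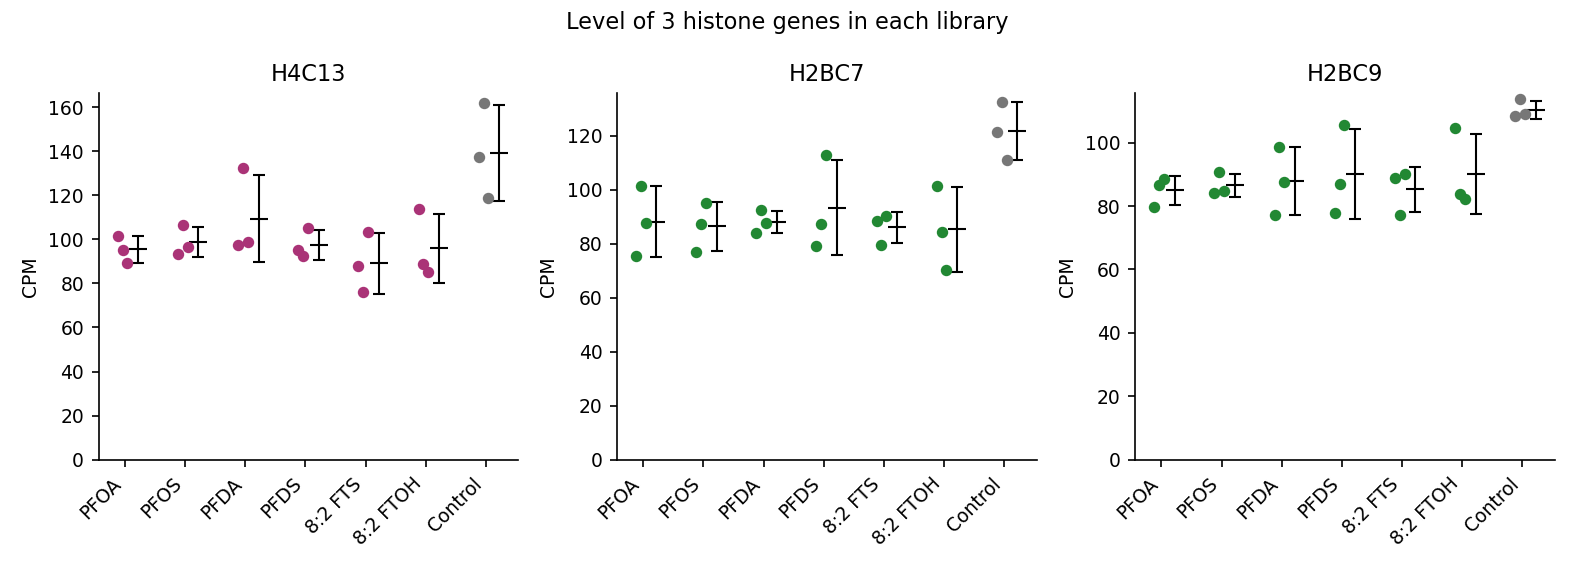
Level of H4C13, H2BC7 and H2BC9 in CPM; points are libraries, and the bar beside them is the mean with its SD (n = 3). The control libraries of H2BC9 lie between 108.5 and 113.6 CPM, above all 18 exposed libraries.

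The calls on these genes turned on the test. With no filter on low counts, between 3 and 9 members passed with each compound, all lower, and H4C13 and H2BC7 were among them for all 6. With a fit of only the groups compared, 5 members passed for PFOA, 4 for 8:2 FTS, 3 for PFOS, 2 for PFDA, 1 for 8:2 FTOH and 0 for PFDS, among 82, 50, 48, 60, 31 and 2 genes called over the whole table in that order. With the DESeq2 test the counts were 2 for PFOA, 2 for 8:2 FTS, 2 for 8:2 FTOH, 1 for PFDS, 0 for PFOS and 0 for PFDA, among 75, 50, 59, 30, 17 and 12 genes called over the whole table in that order. With no filter, between 52 and 161 genes were called over the whole table for each compound. Over all settings run and all 13 comparisons, 15 members passed at least once, with H4C13, H2BC7, H2BC4, H2BC9 and H2AC14 passing most often. Of these 15, H3C8, H2AC4 and H4C3 passed only in 8:2 FTS against PFOS. The number of all genes that passed at least once is not given here.

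H1 genes encode the linker histones that bind DNA where it enters and leaves the nucleosome. H1-5 averaged 393 CPM ± 52.8 with 8:2 FTS and 523 ± 92.7 in the controls (n = 3 each), without overlap, at a log2 fold change of -0.41 ± 0.20 and an adjusted p of 0.666. H1-2 averaged 299 CPM ± 28.7 with 8:2 FTS and 335 ± 35.5 in the controls, and H1-4 averaged 266 ± 13.2 and 280 ± 35.3. Both overlapped the controls. The 5 tested H1 genes had medians between -0.19 with PFDA and -0.06 with 8:2 FTOH on the log2 scale.

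H2A and H2B genes encode the histones that form the dimers flanking the H3 and H4 core of the nucleosome. Their medians were negative with every compound, between -0.24 and -0.17 for the 15 H2A genes and between -0.25 and -0.16 for the 19 H2B genes. H2AC14 averaged 171 CPM ± 12.6 with 8:2 FTS and 225 ± 39.6 in the controls (log2 fold change -0.40 ± 0.14, adjusted p = 0.421; it shares 82.4% of its 75-base stretches with other transcripts), H2AC11 averaged 140 ± 12.5 and 175 ± 13.1, and H2AC8 averaged 188 ± 17.4 and 218 ± 28.1. H2BC4 averaged 163 CPM ± 18.1 with 8:2 FTS and 211 ± 15.9 in the controls, at -0.38 ± 0.12 and an adjusted p of 0.36. H2BC18 averaged 196 CPM ± 18.3 with 8:2 FTS and 230 ± 16.1 in the controls, and H2BC5 averaged 144 ± 10.3 and 166 ± 7.97. Of these 6 genes, only H2AC8 overlapped the controls with 8:2 FTS, where 7.17% of all genes lay below every control library.

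H3 genes encode the histone whose tail carries many of the regulatory modifications. With 8:2 FTS, 12 of 12 tested H3 genes had a negative log2 fold change, with a median of -0.32, the lowest class median of any compound. H3C8 averaged 138 CPM ± 9.92 with 8:2 FTS and 182 ± 51.1 in the controls, H3C6 averaged 165 ± 17.3 and 199 ± 22.6, and H3C2 averaged 266 ± 20.3 and 285 ± 28.8. All 3 overlapped the controls. The class medians with the other compounds lay between -0.23 with PFDA and -0.12 with PFOS.

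H4 genes were the most mixed class. The median of the 15 tested H4 genes was -0.02 with PFOA and 0.03 with PFOS, with 9 and 7 of the 15 negative, whereas it was -0.18 with 8:2 FTS, with 14 negative. H4C4 averaged 226 CPM ± 17.4 with 8:2 FTS and 267 ± 32.3 in the controls, without overlap, while H4C5 averaged 155 ± 9.28 and 188 ± 22.9 and H4C3 averaged 224 ± 12.7 and 247 ± 47.7, with overlap. The difference between the H4 class and the other classes was not tested.

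H4C13 had the lowest log2 fold change of the members averaging at least 1 CPM with PFOA, PFOS, 8:2 FTS and 8:2 FTOH. The other members at the ends of the range had lower counts, and several have near-identical copies. H2AC19 on chromosome 1 had the highest log2 fold change with 8:2 FTOH, 0.72 ± 0.36, and with PFOA, 0.53 ± 0.36, with adjusted p of 0.673 and 0.67. It stood at 21.6, 10.2 and 7.63 CPM in the 8:2 FTOH libraries, so that 1 library carried the mean, and at 11.1, 10.7 and 12.9 CPM with PFOA, against 7.46, 8.97 and 7.66 CPM in the controls. H4C11, which shares 79.6% of its 75-base stretches with another gene's transcripts, had the highest value with PFDA, 0.33 ± 0.31, and with PFOS, 0.30 ± 0.31. Its counts may be split with its copies, since no option to count reads with several positions is recorded in the file headers. H2BC12L with PFDS (0.48 ± 0.27) and the pseudogene H2AC5P with 8:2 FTS (0.39 ± 0.29) were the others, at averages of 4.76 CPM ± 1.92 and 2.65 ± 0.55, against 3.43 ± 0.79 and 2.05 ± 0.16 in the controls. At the lower end with the remaining compounds, H3C14 had the lowest value with PFDA (-0.56 ± 0.29) at 1.94 CPM ± 0.45, against 2.91 ± 0.57 in the controls, and H4C14 with PFDS (-0.58 ± 0.30) at 1.72 ± 0.73, against 2.62 ± 0.78. Transcripts of H3C14, H2BC12L and H4C14 are also near-identical to those of other genes. Of 79 members with a transcript in GENCODE v29, 15 shared over 50% of their 75-base stretches and 46 shared none. In addition, 14 members overlap exons of another gene, and among the tested members named here H2BC18 and H4C8 do. No strand option is recorded in the file headers, so reads of overlapping genes on opposite strands cannot be told apart. Among the 44 tested members that shared under 5%, the medians were -0.24 with 8:2 FTS and between -0.19 and -0.13 with the other compounds.

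Pairs of compounds that differ by a named change in structure were compared directly at the same dose and time, in 7 pairs, and 0 of 66 members were called in any of them. For chain length, PFDA against PFOA gave a median log2 fold change of 0.00, with 0% of all genes called, and PFDA libraries lay below every PFOA library in 4 members, where 5.16% of all genes did so, and above in 1, where 4.81% did so. PFDS against PFOS gave a median of -0.05, with 0.00402% of all genes called. H4C14 averaged 1.72 CPM ± 0.73 with PFDS and 3.14 ± 0.39 with PFOS, at -0.85 with a 95% interval of -1.47 to -0.24 and an adjusted p of 0.999. For the head group, PFOS against PFOA gave a median of 0.05, with 0% of all genes called. PFDS against PFDA gave 0.01, also with 0% of all genes called. In that pair H2BC3 had a log2 fold change of -0.37 (95% interval -0.71 to -0.04), and the lowest edgeR adjusted p of any member was 0.89. At an unadjusted p of 0.05, 2 members were lower and 0 higher, where 2.96% of all genes were lower and 2.63% higher.

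The medians of 8:2 FTS against the compounds it was set against were all negative. For 8:2 FTS against PFOS, with 0% of all genes called, 62 of 66 members had a negative log2 fold change, with a median of -0.12. The 8:2 FTS libraries lay below every PFOS library in 11 members, where 4.92% of all genes did so. H4C8 averaged 49.8 CPM ± 3.31 with 8:2 FTS and 60.1 ± 4.39 with PFOS, at -0.27 with a 95% interval of -0.48 to -0.05. The controls averaged 51.2 CPM ± 1.78 for H4C8, near the 8:2 FTS level. All PFOS libraries lay above all control libraries in this gene, where 6.62% of all genes did so. At an unadjusted p of 0.05, 1 member was lower and 0 higher in this pair, where 1.46% of all genes were lower and 1.41% higher. For 8:2 FTS against PFDS, with 0% of all genes called, 52 members were negative with a median of -0.08. H2BC4 averaged 163 CPM ± 18.1 with 8:2 FTS and 197 ± 31.2 with PFDS, at -0.28 with an interval of -0.52 to -0.03. The lowest edgeR adjusted p of any member in this pair was 0.999. At an unadjusted p of 0.05, 1 member was lower and 0 higher, where 1.85% of all genes were lower and 2.25% higher. For 8:2 FTS against 8:2 FTOH, with 0% of all genes called, 48 members were negative with a median of -0.05, which was 0.09 without 8:2 FTOH replicate 1. Over the 7 pairs, the 95% interval of the log2 fold change lay within a 2-fold change in either direction for 58 to 64 of the 66 members, and within 1.5-fold for 43 to 55. Without PFDS replicate 1 the medians against PFOS and PFDA were 0.11 and 0.17, and without PFDS replicate 3 they were -0.21 and -0.16. The median of 8:2 FTS against PFDS was -0.23 without PFDS replicate 1 and 0.07 without PFDS replicate 3.

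None of the listed genes that act on histone RNA and protein passed the edgeR test. Of 18 genes for the transcription, processing and decay of histone pre-mRNA, 0 were called with any compound, and between 10 and 15 were negative, with medians between -0.10 and -0.03. TUT7, which uridylates histone mRNA as it decays, averaged 53.5 CPM ± 3.41 with PFOS and 63.1 ± 3.88 in the controls (log2 fold change -0.23, adjusted p = 0.54). ERI1, the nuclease that trims the stem-loop, averaged 43.7 CPM ± 2.05 with 8:2 FTS and 52.2 ± 2.82 in the controls (-0.25, adjusted p = 0.402). Of 19 histone chaperones and import factors, 0 were called, with medians between -0.11 and -0.06. SUPT16H, a subunit of the FACT chaperone, averaged 337 CPM ± 13 with PFOS and 390 ± 11.9 in the controls (-0.21, adjusted p = 0.543), and DAXX, an H3.3 chaperone, averaged 64.4 ± 7.18 with PFOA and 76.9 ± 1.48 in the controls (-0.26, adjusted p = 0.308).

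A list of histones classed as replication-independent, with H2AX and H2AZ1 among them, served as a comparison within the same protein family. Whether each of them is made independently of S phase in these cells was not tested. Of 11 tested genes, 0 were called and between 7 and 10 were negative, with medians between -0.08 and -0.03, against -0.23 to -0.13 for the replication-dependent members. The difference between the lists was not tested. H3-3A, one of the genes for the replacement histone H3.3, averaged 240 CPM ± 24.6 with PFDA and 282 ± 19.6 in the controls (log2 fold change -0.23, adjusted p = 0.44), and MACROH2A2 averaged 103 ± 3.07 with PFOA and 116 ± 5.19 in the controls (-0.17, adjusted p = 0.408). The 6 members known to give polyadenylated transcripts in differentiated cells (H1-2, H2AC6, H2BC4, H2BC5, H2BC12 and H2BC21) had medians between -0.22 with 8:2 FTS and -0.11 with PFOS, with 5 or 6 of the 6 negative.

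Cell cycle genes leaned the same way as the histone genes in these libraries, and their part in the histone levels was not tested. Of 22 genes of S phase and the G1/S transition, 0 were called and between 17 and 21 were negative, with medians between -0.15 with PFDA and -0.09 with PFDS. MCM2, a subunit of the replicative helicase, averaged 88.4 CPM ± 6.92 with PFOA and 110 ± 8.16 in the controls (log2 fold change -0.31, adjusted p = 0.196). TYMS, which makes thymidylate, averaged 32.7 ± 0.83 with PFDA and 41.4 ± 2.03 in the controls (-0.34, adjusted p = 0.272). Of 14 genes of G2 and mitosis, 0 were called and between 10 and 13 were negative, with medians between -0.11 and -0.03. PLK1, a mitotic kinase, averaged 43.5 CPM ± 1.48 with PFOA and 58.4 ± 3.06 in the controls (-0.42, adjusted p = 0.0661), and MKI67 averaged 686 ± 65.2 and 856 ± 32.2 (-0.32, adjusted p = 0.145). Exons of MCM2, TYMS and PLK1 overlap other genes on the opposite strand in GENCODE v29. PFDS replicate 1, with the lowest histone sum, stood at 2125 CPM for the S phase list and 2802 CPM for the G2 and mitosis list, inside the range of the other libraries. 8:2 FTS replicate 2 had the lowest sum of both lists, at 1854 and 2448 CPM.

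Short structural RNAs, which like most histone RNAs lack a poly(A) tail, varied widely between libraries. Their summed level ran from 11790 CPM in PFDS replicate 1, also the library with the lowest histone sum, to 27420 CPM in PFOS replicate 2. RN7SL1 made up most of it, at 8238 CPM in PFDS replicate 1 and 20150 CPM in PFOS replicate 2. RMRP and SNORA73B were instead lowest in PFDS replicate 2, at 2095 and 124 CPM, and SNORD3A in Control 1, at 380.1 CPM. Of the 10 listed, 4 were tested and 0 called, and 6 were below 1 CPM in every library. SNORA73B averaged 145 CPM ± 31.3 with PFDS and 207 ± 57.3 in the controls (log2 fold change -0.51, adjusted p = 0.854). SNORD3A, a U3 small nucleolar RNA, averaged 2399 CPM ± 318 with PFOA and 867 ± 516 in the controls (1.47, adjusted p = 0.275). The neuronal markers also summed lower in most exposed libraries, at 8178 to 10900 CPM, than in the controls, at 10410 to 10630 CPM. MAP1B alone averaged 5404 of the mean sum of 10490 CPM in the controls. Of the 12 markers, between 7 and 10 had a negative log2 fold change and 0 were called. DBH averaged 1058 CPM with PFOA and between 1154 and 1269 CPM with the other compounds, against 1146 CPM in the controls. MAP1B averaged 4218 CPM ± 563 with PFOA and 5404 ± 104 in the controls (-0.36, adjusted p = 0.145), and NEFM averaged 124 ± 5.85 with 8:2 FTOH and 186 ± 11.8 in the controls (-0.59, adjusted p = 0.116), and exons of NEFM overlap another gene on the opposite strand. The part of cell makeup and of RNA recovery in the histone levels was not tested.

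**Figure D5:**
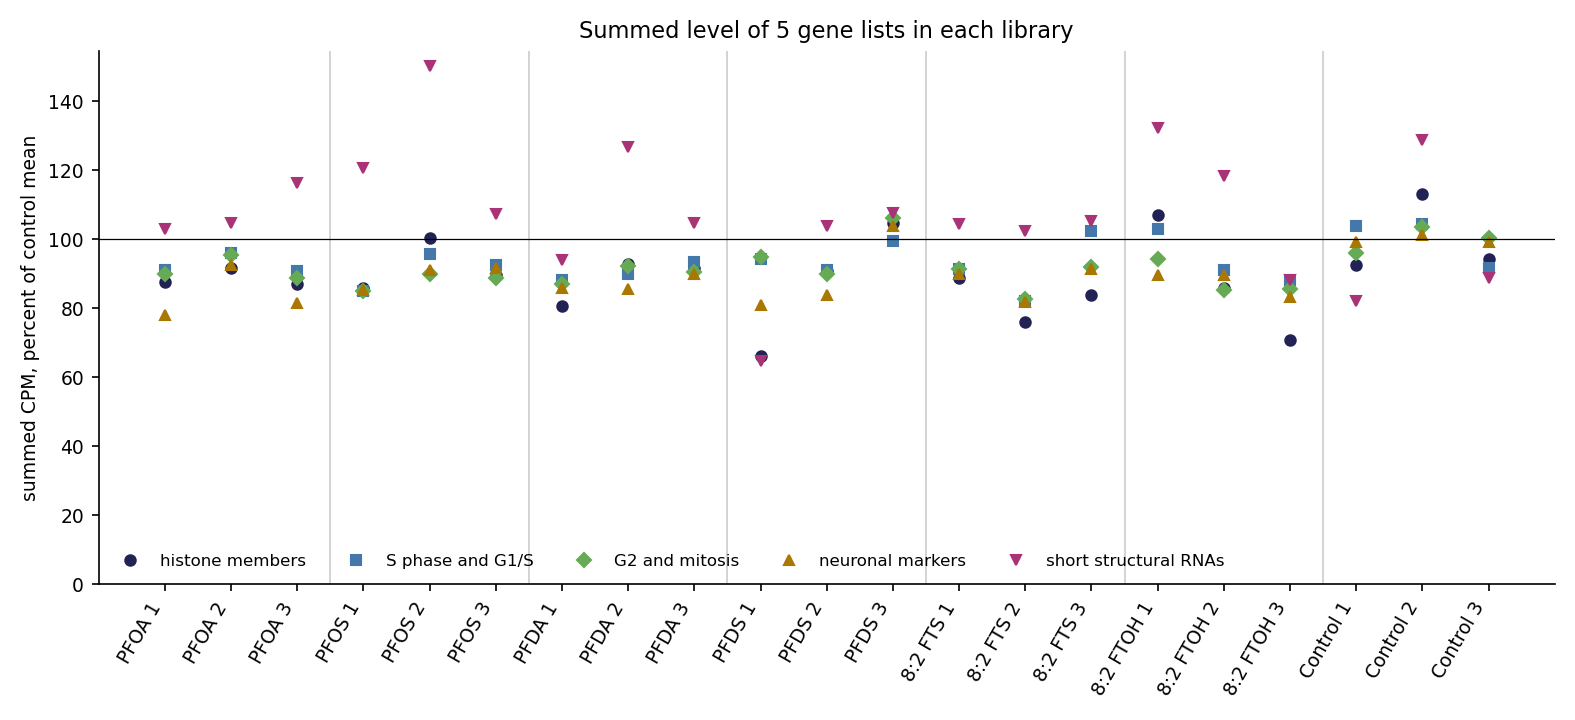
Summed CPM of 5 gene lists in each of the 21 libraries, as a percent of the mean of the control libraries; the line marks 100%. The histone sum and that of the short structural RNAs, which is mostly RN7SL1, are both lowest in PFDS replicate 1. The neuronal markers lie below the control mean in all exposed libraries except PFDS replicate 3.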

How the data were processed

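RNA of 21 libraries (7 groups of 3) was sequenced by the authors. The authors aligned reads to hg38 with HISAT2 and counted them with featureCounts, per the submitters' processing notes; the file headers record no strand, pair or multi-mapping option. The deposited counts are whole reads per gene. The authors' normalized table, a signal equal to the raw counts divided by 1 factor per library, holds 19 libraries and was used only as a check: 100% of its values came out as whole reads within 0.01, equal to the raw counts.

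Counts were scaled by TMM, filtered with filterByExpr and tested in edgeR 4.0.16 (quasi-likelihood, robust, all 21 libraries, no block), with Benjamini-Hochberg adjustment over 24879 genes and a threshold of 0.05; DESeq2 1.42.0 was an alternative (R 4.3.3). On simulated counts for PFOA against control over 24879 genes, 29 of 50 genes changed 1.5-fold and 37 of 50 changed 2-fold were recovered. The simulation planted 50 genes at each of 1.5-, 2-, 3- and 4-fold, where 8 genes were called in the real PFOA comparison. It held no shifts of whole libraries. More planted changes make the adjusted threshold easier to pass, so recovery in the data may be lower. Named members were the 3 with the highest level in each class and those at either end of each comparison with control; in other lists, the 3 with the highest level and the 2 with the smallest p. Members and lists were chosen with earlier results of these data known.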

Additional observations from a re-analysis of the deposited data

How the results depend on the processing

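Under the alternatives other than leaving out 1 library, 115 of 117 medians of the members moved by less than the spread, and the printed log2 fold changes kept their sign in all fits run, while the counts of calls moved most. The spread was the SD of the member medians of the tested group's 3 libraries. These ran from -0.56 to 0.11 in PFDS and from -0.46 to 0.07 in 8:2 FTOH, relative to the control mean. For these 2 groups the rule is weak, since a median could change sign without counting as moved. With no filter on low counts, the number of all genes called was 161 for PFOA against control, 52 for PFOS against control, 68 for PFDA against control, 86 for PFDS against control, 126 for 8:2 FTS against control, 107 for 8:2 FTOH against control, 17 for PFDS against PFOS, 10 for PFDS against PFDA, 6 for 8:2 FTS against 8:2 FTOH, 1 for 8:2 FTS against PFDS and 2 for 8:2 FTS against PFOS. The number of histone members called there was 5 for PFOA against control, 4 for PFOS against control, 5 for PFDA against control, 3 for PFDS against control, 9 for 8:2 FTS against control and 5 for 8:2 FTOH against control, all lower. With the DESeq2 test, the number of all genes called was 75 for PFOA against control, 17 for PFOS against control, 12 for PFDA against control, 30 for PFDS against control, 50 for 8:2 FTS against control, 59 for 8:2 FTOH against control, 2 for PFDS against PFOS, 3 for 8:2 FTS against 8:2 FTOH and 1 for 8:2 FTS against PFDS. The number of histone members called there was 2 for PFOA against control, 1 for PFDS against control, 2 for 8:2 FTS against control and 2 for 8:2 FTOH against control, all lower. With only the 2 groups compared in the fit, the number of all genes called was 82 for PFOA against control, 48 for PFOS against control, 60 for PFDA against control, 2 for PFDS against control, 50 for 8:2 FTS against control, 31 for 8:2 FTOH against control, 6 for PFDS against PFOS, 2 for PFOS against PFOA, 1 for 8:2 FTS against 8:2 FTOH and 25 for 8:2 FTS against PFOS. The number of histone members called there was 5 for PFOA against control, 3 for PFOS against control, 2 for PFDA against control, 4 for 8:2 FTS against control, 1 for 8:2 FTOH against control and 3 for 8:2 FTS against PFOS, all lower. Without Control 3 and 8:2 FTOH 3, the pair of libraries not in the authors' normalized table, the number of all genes called was 169 for PFOA against control, 27 for PFOS against control, 25 for PFDA against control, 26 for PFDS against control, 61 for 8:2 FTS against control and 2 for PFDS against PFOS. The number of histone members called there was 2 for PFOA against control and 2 for 8:2 FTS against control, all lower. Scaled by library size only, the number of all genes called was 4 for PFOA against control, 13 for PFDS against control and 0 for PFDS against PFOS. With the replicate block, the number of all genes called was 1 for PFDA against control. The median for PFOA against control was -0.0832 when scaled by library size only and -0.20 without that pair of libraries. The cause of these changes was not tested. Leaving out 1 library in turn, the number of all genes called ranged from 1 to 136 for PFOA against control, 2 to 24 for PFOS against control, 1 to 21 for PFDA against control, 1 to 100 for PFDS against control, 4 to 41 for 8:2 FTS against control, 1 to 32 for 8:2 FTOH against control, 0 to 3 for PFDS against PFOS and 0 to 1 for PFDS against PFDA. The number of members called ranged from 0 to 1 for PFOA against control, 0 to 3 for PFDS against control, 0 to 1 for 8:2 FTS against control and 0 to 3 for 8:2 FTOH against control. The median of the members ranged from -0.21 to -0.0743 for PFOA against control, -0.17 to 0.0933 for 8:2 FTS against 8:2 FTOH and -0.23 to 0.0701 for 8:2 FTS against PFDS. Replicate numbers did not pair the samples: the correlations of deviations between same-numbered libraries ran from -0.08 to 0.19, in 0 comparisons were all pairs over 0.1, and 8 of 21 libraries correlated best with their own number. With the replicate block 0 members were called in any comparison. The medians restricted to members with few shared stretches were chosen as an alternative after the data were seen. With 3 libraries a group, the median 95% interval of a member reached about 0.35 to each side on the log2 scale.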
